A study of Mus musculus with 4 samples.

Results

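The proteasome genes of mouse long-term haematopoietic stem cells were compared between wild-type (WT) and Sin3B knockout (Sin3B KO) cells. Members were all genes with library values whose symbol starts with Psm, a letter from a to g and a number, without the immunoproteasome subunits Psmb8, Psmb9 and Psmb10. This gave 44 of the 9244 genes measured. They comprised 14 subunits of the core particle (Psma and Psmb), 17 of the regulatory particle (Psmc and Psmd), 4 activators (Psme), 8 genes for assembly factors or an inhibitor, and Psmc3ip. The last encodes a meiotic recombination protein and matches by name only.

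The proteasome degrades proteins that carry ubiquitin chains. Its core particle is a barrel of stacked rings, in which the alpha subunits form the gated outer rings and the beta subunits the inner rings that hold the peptidase sites. The regulatory particle caps the barrel: its lid and base receive the tagged protein and remove the ubiquitin, and a ring of ATPases unfolds the chain and feeds it into the core. Other caps, the Psme activators, open the gate without ubiquitin. In blood stem cells protein turnover is known to be tightly kept, and the subunits of the particles are made in step through shared transcription factors.

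RNA was sequenced from LT-HSCs, the rare marrow cells that renew all blood lineages, of C57BL/6 mice of 8 to 12 weeks. The sort took LSK cells (lineage-negative, Sca-1+ and Kit+) that lacked CD34 and Flk2. They were lysed directly and gave polyA libraries by the SMARTer method, which amplifies small inputs. There were 2 WT and 2 Sin3B KO libraries, numbered 1 and 2 as in their titles. Whether the 2 libraries of a genotype came from separate animals is not stated, so the p-values reflect only how these libraries vary, and that variation may be technical. Neither the kind of Sin3B allele nor any Cre driver is given in the sources used here. In such bulk samples, fewer cells of a type and less RNA per cell cannot be told apart. Values are normalised read counts, that is reads divided by a size factor of the library, and the 4 values of a gene are given in the order WT 1, WT 2, Sin3B KO 1 and Sin3B KO 2.

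With the step of a library's values taken as 1 read, which the files do not state, the libraries held between 9950979 and 13700630 reads in the listed genes. Sin3b, the deleted repressor scaffold, had 1522, 1825, 755 and 647 normalised reads. Its levels were lower in both Sin3B KO libraries (log2 fold change -1.25, SE 0.22) but did not pass (limma, Benjamini-Hochberg adjusted p = 0.548). With the library number as a block, the limma adjusted p of Sin3b was 0.0282, and the authors' deposited table gives it an adjusted p of 0.00249. All 12 LT-HSC markers were measured and took 0.650% to 0.751% of the listed signal. Cd34 and Flt3, which the sort excluded at the protein level, were read in all 4 libraries, at 4945 to 6508 and at 354 to 1170 (1169.8 in WT 1). Neutrophil and monocyte markers took 0.677%, 0.126%, 0.435% and 0.198% of the signal, B lineage markers 0.034%, 0.013%, 0.037% and 0.014%, and erythroid markers 0.059%, 0.036%, 0.121% and 0.041%. These 3 lists were higher in library 1 than in library 2 of each genotype.

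Most subunits of both particles had higher values in Sin3B KO than in WT cells, by about the same modest amount, and no single gene passed the test. Of the 31 subunits of the core and regulatory particles, 28 had a log2 fold change above 0, against 53.4% of all genes, and the median was 0.38, a 1.30-fold higher level. The median of all 9244 genes was 0.03, with quartiles of -0.26 and 0.27, and the quartiles of the subunits were 0.26 and 0.45. In 24 of the 31, both Sin3B KO libraries lay above both WT libraries, in 1 both lay below, and in 6 the groups overlapped. Over all genes, 24.7% lay above and 19.4% below. At an adjusted p under 0.05 (limma, Benjamini-Hochberg), 0 of the 44 members and 0.0% of all genes passed, and the smallest adjusted p of a member was 0.548. At an unadjusted p under 0.05, 7 of the 44 members were higher and 0 lower, against 4.97% and 3.95% of all genes (8.91% in either direction).

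In the authors' deposited table, 11 members were higher at an unadjusted p under 0.05 and 0 were lower, against 5.56% and 4.2% of all genes. None of the members had an adjusted p under 0.05 in the authors' deposited table, where 0.325% of all genes did, and the smallest belonged to Psmg3, with 0.301. The median log2 fold change of the 31 subunits in the authors' deposited table was 0.32, and its sign was the one found here for 44 of 44 members.

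The subunits' summed share of the listed signal was 0.431% in WT 1, 0.469% in WT 2, 0.570% in Sin3B KO 1 and 0.525% in Sin3B KO 2. Both Sin3B KO shares were thus above both WT shares, and the gap between the genotypes exceeded the gap within either. The core took 0.155%, 0.178%, 0.210% and 0.199%, and the regulatory particle 0.276%, 0.290%, 0.361% and 0.326%, in the same order of libraries. WT 1 was the lowest library for the median subunit, at -0.28 on the log2 scale from the gene's mean over the libraries, followed by WT 2 at -0.08, Sin3B KO 2 at 0.14 and Sin3B KO 1 at 0.23. On average over the genotypes, 14 of 31 subunits were higher in library 1 than in library 2. So were 10 of 10 neutrophil and monocyte, 6 of 6 B lineage and 6 of 6 erythroid markers. Between the genotypes, the median log2 fold changes of these lists were 0.03, 0.68 and 0.80. In the same order, 5 of 10, 5 of 6 and 6 of 6 markers were above 0, against 53.4% of all genes. The groups overlapped in 10, 6 and 4 of them, against 5169 of all 9244 genes. The part of these other cells in the subunits' values was not tested. Cell cycle markers took 0.066%, 0.043%, 0.079% and 0.053% of the signal, and all 8 were higher in library 1 than in library 2 on average. Their median log2 fold change was 0.56, with 6 of 8 above 0. The genotypes overlapped in 6 of 8, against 5169 of all 9244 genes, and Sin3B KO lay above in 2, against 24.7%. At an unadjusted p under 0.05 (limma), 2 of 8 were higher, Aurkb and Cdk1, against 4.97% of all genes. Single values ran from -0.60 for Ccna2, a cyclin, to 1.04 for Aurkb, a mitotic kinase. The part of the cell cycle in the subunits' values was not tested.

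**Figure D1:**
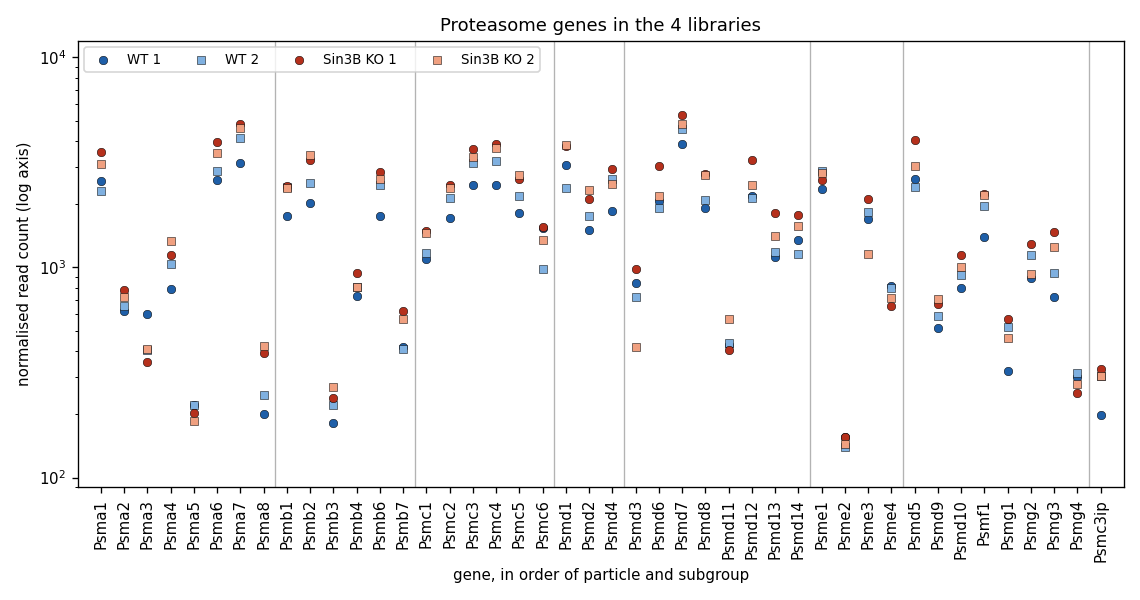
Normalised read count of each of the 44 proteasome genes (log axis) in the 4 libraries, with genes in order of particle and subgroup and 1 point per library (circles for library 1, squares for library 2). The red Sin3B KO points lie above the blue WT points in 24 of the 31 subunits of the core and regulatory particles. Among the activators they overlap with or lie below them. The assembly factors, the inhibitor and Psmc3ip follow to the right of the activators.

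Among the alpha subunits, 6 of 8 were above 0 with a median log2 fold change of 0.41. Psma6 had 2594, 2864, 3948 and 3519 normalised reads, and Psma1 had 2589, 2298, 3527 and 3094. Both genes encode subunits of the outer ring, and in both the WT pair and the Sin3B KO pair were well apart. Their log2 fold changes were 0.45 (SE 0.19) and 0.44 (SE 0.19). Psma7, the alpha subunit with the highest level per kilobase, had 3132, 4148, 4814 and 4584 (log2 fold change 0.38, SE 0.20). WT 1 was far below WT 2 there, and WT 2 was closer to the Sin3B KO values than to WT 1.

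The upstream stretches of Psma1 and Psma6 are shown as examples of the CCAAT box, the site of the factor NF-Y. In the 10 subunits with a CCAAT match in the bases searched, log2 fold changes ran from -0.37 (Psma3) to 0.45. Their median was 0.36, against 0.41 in the 14 without a match, a difference that was not tested. The letters are from RefSeq on GRCm38.p6, 5′ to 3′ on the gene's strand, with the CCAAT box in capitals. For Psma1 the stretch is chr7:114276119-114276238 on the minus strand, and for Psma6 it is chr12:55384102-55384221 on the plus strand.
Psma1: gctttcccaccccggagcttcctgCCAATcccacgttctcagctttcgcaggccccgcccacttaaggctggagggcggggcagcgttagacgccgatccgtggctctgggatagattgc
Psma6: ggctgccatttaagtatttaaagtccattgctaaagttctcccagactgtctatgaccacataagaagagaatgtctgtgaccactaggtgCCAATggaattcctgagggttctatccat

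Psma8, the germ cell paralog of Psma7 that takes its place in the testis, had the highest fold change of all 44 members. It had 201, 248, 391 and 424 normalised reads (log2 fold change 0.86, SE 0.31, 95% confidence interval 0.16 to 1.57). The Sin3B KO libraries lay clearly above the WT libraries. Its mean level was 187 normalised reads per kilobase of transcript, against 4562 for Psma7. The ratio of Psma8 to Psma7 normalised reads, not divided by length, was 0.0641, 0.0598, 0.0813 and 0.0924, so both Sin3B KO ratios were above both WT ratios.

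Other alpha subunits varied less evenly. Psma2 had 618, 654, 783 and 727, and Psma4 had 788, 1038, 1143 and 1341, with the Sin3B KO libraries above the WT libraries in each. Psma3 was the exception, at 601, 405, 356 and 408 (log2 fold change -0.37, SE 0.30), where the groups overlapped. WT 1 stood highest, and without it the log2 fold change of Psma3 was -0.09. Psma5 had 222, 222, 204 and 186 (log2 fold change -0.19, SE 0.36, and -0.12 without Sin3B KO 2). It was the only subunit of the 2 particles with both Sin3B KO libraries below both WT libraries.

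All 6 measured beta subunits were above 0, with a median log2 fold change of 0.37. Psmb2, a structural beta subunit, had 2027, 2507, 3232 and 3432 normalised reads. The Sin3B KO libraries lay above WT by more than the distance between the WT libraries (log2 fold change 0.56, SE 0.20, a 1.48-fold higher level). The catalytic subunit Psmb7, which carries the trypsin-like site, had 417, 408, 618 and 568 (log2 fold change 0.52, SE 0.25). Its WT libraries were close together and both Sin3B KO libraries were higher. Psmb6, which carries the caspase-like site, had 1757, 2465, 2844 and 2626 (log2 fold change 0.39, SE 0.22). The groups did not overlap, but the distance between the WT libraries exceeded that between WT 2 and Sin3B KO 2. The subunit with the chymotrypsin-like site, Psmb5, was not analysed here.

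The upstream stretch of Psmb6 is shown because it holds the core of an antioxidant response element next to the start, the kind of site to which Nfe2l1 and Nfe2l2, activators of proteasome genes, bind with a small Maf partner. The stretch is chr11:70525237-70525356 on the plus strand (RefSeq, GRCm38.p6), with the match to TGACNNNGC in capitals.
Psmb6: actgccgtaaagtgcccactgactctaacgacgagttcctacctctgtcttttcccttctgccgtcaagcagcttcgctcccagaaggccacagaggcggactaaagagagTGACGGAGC

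The other beta subunits are structural. Psmb3 had 181, 221, 239 and 268, and Psmb4 had 733, 809, 937 and 809.7, so that WT 2 and Sin3B KO 2 were level in Psmb4 although the groups count as apart. Psmb1 had 1758, 2424, 2452 and 2381 (log2 fold change 0.23, SE 0.22), where only WT 1 was low and the groups overlapped. The weight of WT 1 showed in the core as a whole: without WT 1 the median log2 fold change of the 14 core subunits was 0.20 in place of 0.39, with 11 above 0 in place of 12. Without that library the log2 fold change was 0.18 for Psma7 and 0.15 for Psmb6.

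The immunoproteasome subunits replace the catalytic beta subunits in many immune cells, and all 3 were read in the stem cells. Psmb8 had 5478, 7799, 7314 and 6764 normalised reads (log2 fold change 0.11, SE 0.22), Psmb9 1686, 2340.2, 2429 and 2715 (0.37, SE 0.22), and Psmb10 1787, 2973, 2302 and 2560.3 (0.07, SE 0.26). The groups overlapped for Psmb8 and Psmb10. In normalised reads not divided by length, the ratio of Psmb10 to its constitutive counterpart Psmb7 was 4.28, 7.28, 3.72 and 4.51, and that of Psmb9 to Psmb6 was 0.960, 0.949, 0.854 and 1.03. Both ratios overlapped between the genotypes. The ratio of Psmb8 to Psmb6, genes that are no counterparts of each other, was 3.12, 3.16, 2.57 and 2.58, with both Sin3B KO values below both WT values.

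Of the 17 subunits of the regulatory particle, 16 were above 0, with a median log2 fold change of 0.38. In 13 both Sin3B KO libraries lay above both WT libraries, against 24.7% of all genes, and in 4 the groups overlapped. The 6 ATPases of the base, which unfold the substrate, were all above 0. Psmc4 had 2464, 3201, 3848 and 3694 normalised reads (log2 fold change 0.42, SE 0.20), and Psmc5 had 1808, 2194, 2637 and 2750.2 (0.44, SE 0.20). Psmc1, Psmc2 and Psmc3 had log2 fold changes of 0.38, 0.34 and 0.33, again with no overlap. The sixth ATPase, Psmc6, had 1543, 981, 1553 and 1355 (log2 fold change 0.24, SE 0.26): only WT 2 was low, and WT 1 reached the level of Sin3B KO 1.

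The largest base subunits, Psmd1 and Psmd2, are scaffolds on which other subunits and ubiquitin-binding proteins dock. Psmd1 had 3068, 2386, 3775 and 3840.0 normalised reads (log2 fold change 0.49, SE 0.20, and 0.31 without WT 2), the highest fold change in the regulatory particle. Psmd2 had 1504, 1755, 2112 and 2336 (log2 fold change 0.45, SE 0.20). In both genes the WT libraries were lower than either Sin3B KO library. Psmd4, a ubiquitin receptor, had 1847, 2622, 2929 and 2489 (log2 fold change 0.30, SE 0.23), with WT 2 above Sin3B KO 2.

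The lid holds the deubiquitinase of the regulatory particle and the subunits that frame it. Of its 8 subunits with Psmd names, 7 were above 0. Psmd8 had 1926, 2094, 2797 and 2738 normalised reads. The libraries of each genotype were close together and the genotypes apart (log2 fold change 0.46, SE 0.19). Psmd13 had 1123, 1183, 1818 and 1412 (log2 fold change 0.47, SE 0.22), and here Sin3B KO 1 was well above Sin3B KO 2, with a log2 fold change of 0.29 without it. The deubiquitinase itself, Psmd14, had 1344, 1159, 1777 and 1567 (log2 fold change 0.42, SE 0.21), and its partner Psmd7 had 3851, 4545, 5288 and 4834 (0.27, SE 0.19, and 0.15 without WT 1). Psmd6 and Psmd12 both had a log2 fold change of 0.38 without overlap.

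The upstream stretch of Psmd8 is shown as an example of a subunit with none of the motifs searched in these letters. It is chr7:29180702-29180821 on the minus strand (RefSeq, GRCm38.p6).
Psmd8: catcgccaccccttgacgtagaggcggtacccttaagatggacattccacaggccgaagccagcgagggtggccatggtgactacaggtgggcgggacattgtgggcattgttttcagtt

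A pair of lid subunits did not share this pattern. Psmd3 had 840.3, 723, 979 and 416 normalised reads (log2 fold change -0.29, SE 0.37). Sin3B KO 1 was its highest and Sin3B KO 2 its lowest library, and without Sin3B KO 2 the log2 fold change was 0.33. Psmd11 had 426, 439, 404 and 565 (log2 fold change 0.14, SE 0.28), with only Sin3B KO 2 high, and was at -0.10 without that library.

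The 4 activators had a median log2 fold change of -0.08 and 2 of 4 were above 0. Psme1, the alpha chain of the interferon-inducible cap, had 2370.4, 2876, 2591 and 2810.0 normalised reads. The groups overlapped, and the 95% confidence interval of the log2 fold change (0.05, SE 0.20) ran from -0.40 to 0.50. Psme3, which forms a nuclear cap of its own, had 1703, 1829, 2125 and 1153 (log2 fold change -0.17, SE 0.29). Sin3B KO 1 was its highest and Sin3B KO 2 its lowest library, so that without Sin3B KO 2 the value was 0.27. Psme4, a large single-chain nuclear activator, had 814, 798, 655 and 713 (log2 fold change -0.24, SE 0.22), with both Sin3B KO libraries below both WT libraries. Whether the activators differ from the 2 particles was not tested. The direction of Psme1 flipped under the other scalings of the libraries, as did that of Psme2 below.

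Psme2 encodes the beta chain that assembles with the alpha chain of Psme1 into 1 ring, and had 156, 139, 156 and 144 normalised reads (log2 fold change 0.02, SE 0.44), with overlap. Its mean level was 155 normalised reads per kilobase, against 2394 for Psme1. The ratio of Psme1 to Psme2 normalised reads, not divided by length, was 15.2, 20.6, 16.6 and 19.5, with no separation of the genotypes. The gene has a copy elsewhere in the genome, Psme2b, whose 720 coding bases differ from those of Psme2 at 5 (99.3% identity). Coding bases 424 to 543 of both, the 120 bases shown here, have 3 differences, in capitals. They are from GENCODE M21 (GRCm38), where Psme2 spans chr14:55587441-55591113 and Psme2b chr11:48945354-48946190, both on the minus strand.
Psme2: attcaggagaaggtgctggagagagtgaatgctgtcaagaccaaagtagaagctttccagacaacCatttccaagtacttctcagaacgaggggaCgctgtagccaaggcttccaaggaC
Psme2b: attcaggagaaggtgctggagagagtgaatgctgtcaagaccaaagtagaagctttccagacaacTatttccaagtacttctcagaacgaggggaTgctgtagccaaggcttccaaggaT

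The handling of reads that match more than 1 locus is not stated, so the level of such genes is uncertain. Of the 44 members, 8 had a near-identical copy, defined as at least 95% identity over at least 200 bases at another locus. The copies covered 98.2% of the transcript of Psmd2, 82.5% of Psme2, 82.0% of Psmc1, 80.7% of Psmb3, 76.5% of Psma5, 66.9% of Psma4, 52.7% of Psmd11 and 27.0% of Psma3. The median level of these 8 was 233 normalised reads per kilobase of transcript, against 1050 (1049.9) for the 35 without a copy, Psmc3ip left aside. Of the 8, 6 were above 0, with a median log2 fold change of 0.24. Of the 36 members without a copy 32 were above 0, with a median of 0.37. Psma3 and Psma5, the core subunits below 0, were both among the 8, while Psmd3 was not. The part of the copies in these values was not tested.

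Levels within each particle, whose subunits are present in equal or nearly equal number in the protein complex, were far from equal at the RNA level. In the core they ran from 155 normalised reads per kilobase for Psma3 to 4562 for Psma7, a 29.3-fold range. In the regulatory particle they ran from 161 for Psmd11 to 2928 for Psmd7, an 18.2-fold range, and in the activators from 115 for Psme4 to 2394 for Psme1. The median was 809.9 in the core and 1219 in the regulatory particle. Both lowest subunits of the particles have a near-identical copy and a long transcript model, which lowers a value per kilobase. The ratio of the median level of the regulatory particle to that of the core was 1.52, 1.43, 1.56 and 1.41, and it did not separate the genotypes.

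**Figure D2:**
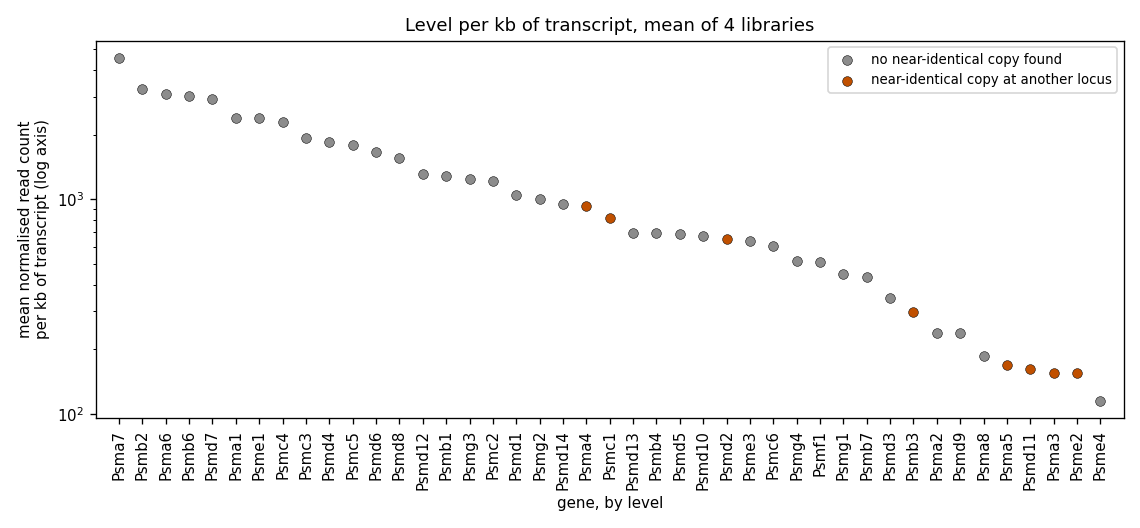
Mean normalised read count per kilobase of transcript over the 4 libraries (log axis) for 43 proteasome genes in order of level, with genes that have a near-identical copy in orange. The orange genes have a median of 233 and the grey genes of 1050 (1049.9), and Psma7 is the highest at 4562.

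Among the assembly factors and the inhibitor, 7 of 8 were above 0 and the median log2 fold change was 0.32. Psmg3, a chaperone of alpha ring assembly, had 726, 939, 1480.1 and 1248 normalised reads. Both Sin3B KO libraries were well above both WT libraries (log2 fold change 0.72, SE 0.23, a 1.65-fold higher level). Psmd5, a chaperone of the base, had 2645, 2410.4, 4027 and 3029 (log2 fold change 0.47, SE 0.21), with Sin3B KO 1 standing highest and a log2 fold change of 0.26 without it. The base chaperones Psmd9 and Psmd10 both had a log2 fold change of 0.32, and Psmf1, an inhibitor of the core in the test tube, had 1389, 1960.3, 2233 and 2221 (0.43, SE 0.22, and 0.18 without WT 1). Psmg4, a small alpha ring chaperone, had 299.9, 316, 253 and 280.0 (log2 fold change -0.21, SE 0.31, and -0.14 without Sin3B KO 1), with both Sin3B KO libraries lower. Psmg1 and Psmg2, which act as a pair, had 0.32 and 0.12, with overlap. Psmc3ip, the name match, had 199.5, 303, 329 and 304 (log2 fold change 0.36, SE 0.34, and 0.06 without WT 1).

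**Figure D3:**
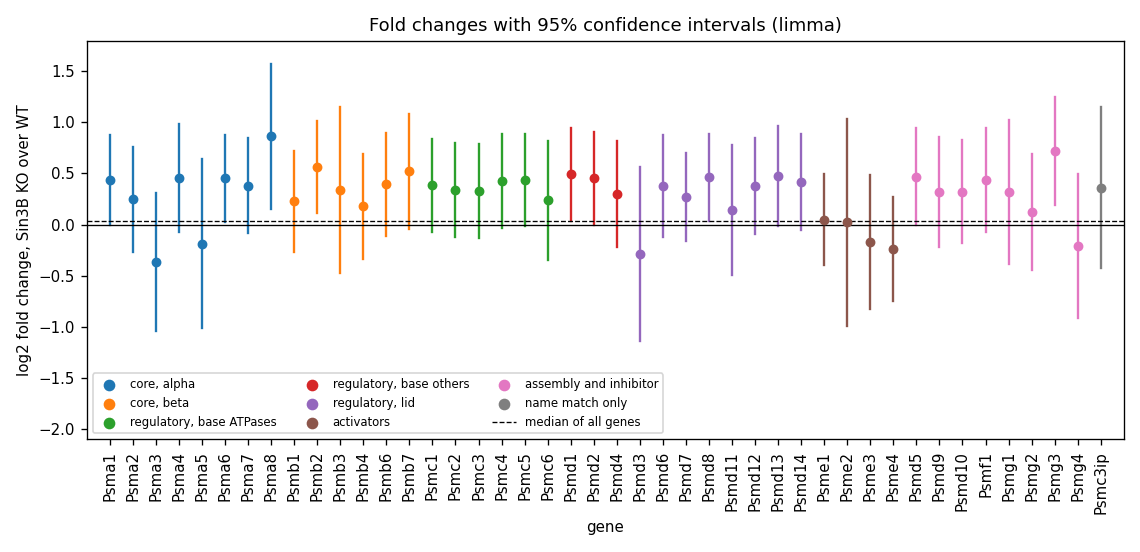
Log2 fold change of Sin3B KO over WT for each of the 44 genes with its 95% confidence interval (limma), coloured by subgroup, with the median of all genes (0.03) as a dashed line. The subunits of the 2 particles gather around 0.38, Psma8 is the highest at 0.86, and 7 of the 44 intervals exclude 0 (limma, unadjusted).

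Reads of genes whose exons overlap could not be assigned with certainty, and no strand setting is given. Exons of 10 members overlap those of another gene, and over 10% of the exon bases do so in 3: Psmb7 with 34.9% (Nek6), Psmc3ip with 29.8% (Mlx) and Psmg3 with 26.8% (Gm26938). The overlap of Psmg3 lies on the same strand, as does that of Psmd1 (9.67%, Gm21972). A strand setting would not separate such reads.

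Short and abundant genes in general tended to higher values in Sin3B KO. Across 9000 genes with a length, log2 fold change and transcript length had a Spearman correlation of -0.268, which is across genes of the same 4 libraries. The median transcript had 1174 bases in the core, 1636 in the regulatory particle and 3007.5 over all genes. With the trend on length subtracted, which stood at 0.12 for the median subunit, the median of the 31 subunits was 0.26. Among the 871 genes with a transcript under 2000 bases and a mean of at least 1000 normalised reads, the median log2 fold change was 0.20, 80.4% were above 0, and 41.0% had both Sin3B KO libraries above both WT libraries. The 19 subunits among them had a median of 0.39, with 19 above 0 and 17 with both Sin3B KO libraries higher. The part of length and abundance in the subunits' values was not tested.

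**Figure D4:**
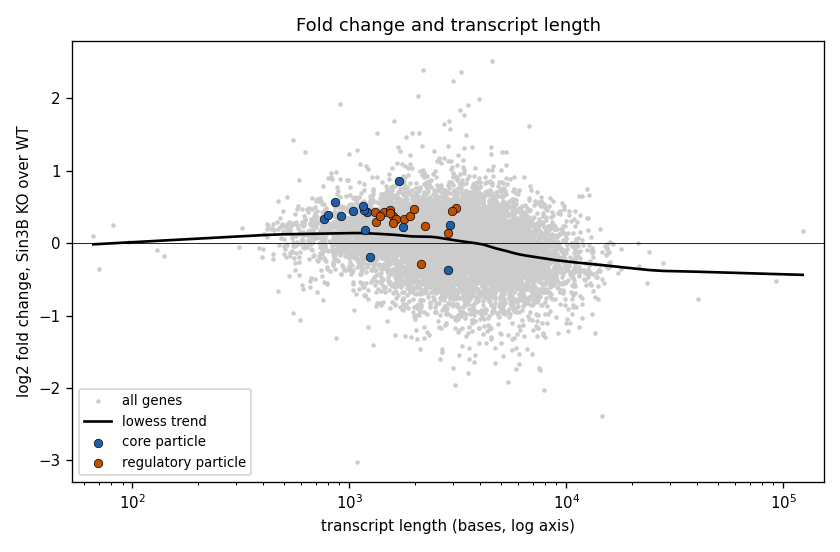
Log2 fold change of Sin3B KO over WT against transcript length in bases (log axis) for 9000 genes in grey, with their lowess trend as a black line and the core and regulatory subunits in colour. The subunits lie on the short side, where the trend is above 0, and most lie above the trend, with Psma3, Psma5 and Psmd3 below it.

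Motifs were searched on both strands in the 250 bases before the start of 36 members for which RefSeq (GRCm38.p6) windows were given, 24 of them subunits of the particles. The ETS core, spelled CCGGAAG, was in 8 of the 24 (33.3%), against 15.6% of the 7079 windows of genes with library values and 7.05% of 27025 windows in all. CCAAT was in 10 (41.7%), against 36.6% and 34.5%. The antioxidant response element core TGACNNNGC was in 3 (12.5%), those of Psmb6, Psmc6 and Psmd12, against 12.5% and 10.1%. TTTGAA, the cell cycle homology region, was in 1, that of Psmd1, against 10.2% and 16.3%. None of these spellings is contained in another, though matches may share letters at their ends. A match is a description of the letters only.

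Subunits with and without these letters had medians close to each other, a difference that was not tested. The median log2 fold change was 0.36 in the 8 subunits with the ETS core and 0.42 in the 16 without it. It was 0.36 in the 10 with CCAAT and 0.41 in the 14 without, and 0.38 both in the 3 with the antioxidant response element core and in the 21 without.

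Other genes of the ubiquitin pathway are described as lists, whose difference from the particles was not tested. Ubb, a polyubiquitin gene, had 12937, 19430.4, 17836 and 18646 normalised reads, and the groups overlapped. The ubiquitin-activating enzymes Uba1 (4343, 5332, 5239 and 5658) and Uba6 (1159.5, 649, 749 and 763) also overlapped between the genotypes. Among 14 genes listed as receptors, shuttles, deubiquitinases and other proteins that bind the proteasome, 8 were above 0, with a median of 0.15. Zfand5, a zinc-finger protein that stimulates the proteasome, had 846, 967, 408 and 673 there (log2 fold change -0.79, SE 0.29), with both Sin3B KO libraries lower.

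Among 12 genes of the p97 segregase and its cofactors, which extract ubiquitinated proteins before degradation, 9 were below 0, with a median log2 fold change of -0.21. Transcripts in this list ran from 1033 bases for Ubxn1 to 10313 for Ubxn7, and the part of length was not tested. Ube4b, a ubiquitin chain elongation factor, had 918, 1497, 785 and 719.7 (log2 fold change -0.64, SE 0.27). Maturation factors outside the Psm names differed in direction: Pomp, which matures the core, had 1469.7, 1926, 2015 and 1989 (0.25, SE 0.21), and Akirin2, which helps to bring proteasomes into the nucleus, had 180.1, 199.8, 92.3 and 118 (-0.86, SE 0.47). A list of 11 genes held transcription factors of proteasome genes, the processing enzyme Ngly1, and Keap1, which is not a transcription factor. Its median was -0.18, with 4 above 0, Keap1 (0.13) among them. Transcripts there ran from 1932 bases for Nfyc to 4923 for Mafg, and the part of length was again not tested. Mafg, a small Maf partner, had 499, 466, 286 and 288 (log2 fold change -0.75, SE 0.28), with both Sin3B KO libraries lower. Nfe2l1 had 1662, 1434, 1568 and 1295 with overlap, and Nfe2l2 3175, 3104, 3795 and 3774 without. None of these genes passed over all genes (limma, smallest Benjamini-Hochberg adjusted p 0.548).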

How the data were processed

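Per the submitters' processing notes, mm9 was the mouse build, and Bowtie and DESeq were used (versions not named). Which tool and annotation counted the reads is not given in the sources used here. As deposited, the table holds a signal per library, made by the authors, for 9244 genes. In each library every value was a whole multiple of a step within 0.01 of it, as for reads divided by a size factor. The table also holds, per the file headers, a log2 fold change with its error, a test score and p-values. Its listed genes have a mean of at least 120.2; a further 552 genes (5.63%) without library values, none of them a member, were left out.

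The 2 genotypes were compared with limma 3.58.1 (R 4.3.3) on log2(value + 1) with a trended prior over the 9244 genes, all of which reached a value of 1 in 2 libraries, with Benjamini-Hochberg adjustment and a threshold of 0.05. Simulated data were used to check the test. For the median gene, the 95% confidence interval reached 0.60 (log2) to either side, a 1.51-fold difference. Fold changes are on the log2(value + 1) scale. Near-identical copies were searched with blastn 2.17.0 in GENCODE M21 transcripts and the length trend drawn with statsmodels 0.14.6.

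Members and lists were chosen with earlier results of these data known. Named genes were the catalytic subunits, up to 3 members per direction with the largest fold changes in each group, the highest and lowest per kilobase, and those with an unadjusted p under 0.05 (limma); from other lists, members under that p or the 2 most abundant. Any other gene was named with its values known. A result within this rule is not reported here. The labels' descriptions number the libraries 1 and 3 where the titles have 1 and 2. Alternatives were other scalings, pseudocounts and filters, the replicate number as a block, each library left out, the length trend removed, and members without copies, the last chosen after seeing the data.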

Additional observations from a re-analysis of the deposited data

How the results depend on the processing

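The number of members past the threshold was 0 in every alternative run; of all genes, 0 passed as reported, 27 (0.292%) with the replicate number as a block, and 0 to 1 with a library left out (1 without WT 2 and 1 without Sin3B KO 2). At an unadjusted p under 0.05 (limma), 16 members passed with the block. The share of all genes under that p with the block is not given here, so this count is not read as particular to the members. Of the genes named in the text, the block changed the call of Sin3b (limma, Benjamini-Hochberg adjusted p = 0.0282 with the block, 0.548 without it) and of no member. The deviations of same-numbered libraries correlated at 0.46, but with only 2 pairs the numbers were not taken to pair the samples. The core median was 0.25 with the length trend removed and 0.20 to 0.49 with a library left out. The regulatory median was 0.27 with the length trend removed and 0.27 with upper quartile scaling. The activator median was -0.12 with trimmed mean scaling, -0.19 with upper quartile scaling, -0.16 with total scaling, -0.17 over genes with a mean of at least 500, -0.17 without copies, and -0.16 to 0.0328 with a library left out. These scalings moved the median of all genes by -0.05, -0.11 and -0.08. Under trimmed mean, upper quartile and total scaling Psme1 was at -0.00098, -0.0662 and -0.0376 and Psme2 at -0.0251, -0.0900 and -0.0615. With a library left out, Psme1 ran from -0.0921 to 0.19, Psme2 from -0.0582 to 0.10, Psme3 from -0.61 to 0.27, Psmd3 from -0.90 to 0.33 and Psmd11 from -0.10 to 0.38. Of 268 values of the 25 named members under alternatives, 255 kept their direction and 13 reversed it, 7 of these with a library left out. No member passed in any setting, so the side of the threshold could not tell the settings apart. The block leaves a fold change as it is, and the pseudocounts hardly move it, so the 255 do not measure robustness. The cause of these differences was not tested. Count models on reads recovered from the steps were planned and not run. With 2 libraries a genotype, differences under about 1.51-fold in a single gene were within the interval of the typical gene.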
